A study of Homo sapiens with 12 samples.

Results

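The genes described here encode 10 subunits of the machinery that cuts nascent transcripts at their 3′ ends and adds the poly(A) tail. They were chosen by name, as the rows CPSF1, CPSF2, CPSF3, CPSF4, CPSF6, CSTF1, CSTF2, CSTF3, NUDT21 and FIP1L1 among 58684 genes in the table of counts. All 10 were found there, and 9 held enough counts to be tested. CPSF2 was not tested, with 72 counts over all libraries.

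The data were read counts per gene from U2OS cells, a human osteosarcoma line, in 12 RNA sequencing libraries. One kind of cell stably carried eIF4E-Flag, a tagged form of the cap-binding translation initiation factor, and the other carried the vector alone. From each kind there were 3 libraries of total RNA, called input, and 3 of RNA recovered by an immunoprecipitation of capped RNA, called Cap IP. The study asked, by its title, whether eIF4E raises the share of transcripts that carry an m7G cap, and the cleavage and polyadenylation genes are followed here through both kinds of library. The parent line came from ATCC. The labels mention no further agent, and do not say whether a stable line was a clone or a pool, or whether replicates were grown separately. The p-values therefore measure only the spread between these samples, which may be technical. The libraries are bulk, so fewer cells of a kind and less RNA per cell cannot be told apart.

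Most mRNAs receive a cap at the first nucleotide and a poly(A) tail at the other end, and the tail is made in a pair of linked steps, endonucleolytic cleavage and polymerisation. The cleavage and polyadenylation specificity factor, CPSF, recognises the AAUAAA signal and holds the nuclease. The cleavage stimulation factor, CstF, binds the U- or GU-rich element downstream of the cut, and cleavage factor I, CFIm, binds UGUA elements upstream and takes part in the choice between alternative sites.

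The transcript start is where the cap is added, so 4 starts are shown, a pair that holds the sequence CCGGAAGT, a core recognised by ETS factors, and a pair that does not. Each run covers 60 bases before and 10 bases from the RefSeq start, on the coding strand of GRCh38.p14. Capitals mark the start base and, where present, CCGGAAGT. In CSTF1 the start base lies inside that motif. The runs are at chr2:9423594-9423663 (CPSF3), chr12:69239509-69239578 (CPSF6), chr20:56392319-56392388 (CSTF1) and chrX:100820331-100820400 (CSTF2), all on the plus strand.
CPSF3: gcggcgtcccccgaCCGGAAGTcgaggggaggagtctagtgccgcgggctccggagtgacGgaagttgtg
CPSF6: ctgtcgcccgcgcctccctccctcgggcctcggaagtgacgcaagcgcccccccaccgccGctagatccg
CSTF1: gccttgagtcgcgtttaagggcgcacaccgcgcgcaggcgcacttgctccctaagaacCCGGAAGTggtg
CSTF2: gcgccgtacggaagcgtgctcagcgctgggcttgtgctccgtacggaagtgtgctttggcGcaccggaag

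RefSeq start windows of 300 bases were read for 9 of the 10 genes, in 11 windows. Windows on chromosome 8 were left out for the group, so CPSF1 is not among the 9. The motifs were chosen after these sequences had been seen and were searched on both strands. CCGGAAGT was found in 4 of the 9 genes, CPSF3, CSTF1, CSTF3 and NUDT21. By window this was 4 of 11, and 4.14% of 35116 windows of all genes. CCAAT was found in 6 of the 9, CPSF2, CPSF4, CPSF6, CSTF1, CSTF3 and NUDT21, in 7 of the 11 windows and in 34.6% of all windows. TATAAA was found in 0 of the 9, in 0 of the 11 windows and in 11.5% of all windows. The first transcribed base was G in 7 of the 11 windows, A in 2 and C in 2, whereas over all windows A took 44.4% and G 33.6%. These matches describe letters in the reference, and no binding was measured.

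Libraries held 1206321 to 1813486 counts, of which the 10 genes together took 429 to 904 in input and 187 to 296 in Cap IP. CPM below are library-scaled counts, with library sizes set by TMM so that most genes balance, and 3 counts stood for 1.19 to 1.94 CPM in input and 1.92 to 3.15 CPM in Cap IP. These floors cover counting error only. EIF4E itself held 9 to 15 counts in vector input and 23 to 39 in eIF4E-Flag input, and its difference did not pass (log2 0.98 ± 0.36 SE, edgeR adjusted p = 0.231). Tests are edgeR's quasi-likelihood test, with Benjamini-Hochberg adjustment over all tested genes. Of the genes taken as a check of the line, COL1A1 and SPARC had means of 891 and 470.5 counts per library, RUNX2 and CDH2 had 14.8 and 19.4, and COL1A2 had 2 counts in all. Among markers of other cell types EPCAM had a mean of 4.08 counts, CDH1 15.6 and SNAP25 7.42, and PTPRC and CD3E had 2 and 8 counts in all.

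How strand was treated in counting was not given in the sources used here, although the library kit keeps strand. Genes on the strand opposite to abundant mRNAs held more counts than those mRNAs: a mean of 17369 for VIM-AS1 and 1289 for VIM, and 23099 for BEST1 and 548 for FTH1. MT-ND6, on the other mitochondrial strand, had a mean of 6805 and MT-CO1 one of 1304. For Cap IP over input in vector and eIF4E-Flag cells, VIM-AS1 stood at log2 1.92 and 2.07 and BEST1 at 1.89 and 2.27. VIM stood at 0.47 and -0.02, FTH1 at 0.55 and 0.07, MT-ND6 at -0.14 and 0.58, and MT-CO1 at -3.23 and -3.02. The cause was not tested. Every level below therefore carries the doubt of which strand was counted, and a row may hold reads from the strand opposite to its gene. Annotated genes of the file that lie opposite to a factor or start beside it are given with that factor.

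CPSF1 carried the one difference in the group that passed a test. It is the largest CPSF subunit and a scaffold of the polyadenylation specificity module, and GENCODE release 44 places it on chromosome 8 at 144393229 to 144409335 of GRCh38, minus strand. The vector input libraries had 131, 149 and 162 CPM and the vector Cap IP libraries 47.6, 50.4 and 59.4 CPM. The eIF4E-Flag input libraries had 152, 187 and 199 CPM and the eIF4E-Flag Cap IP libraries 31.8, 57.0 and 55.5 CPM. Every Cap IP library lay below every input library, in both kinds of cell, as was so for 27.2% of all tested genes in vector and 29.5% in eIF4E-Flag cells, while vector and eIF4E-Flag libraries overlapped within input and within Cap IP. These levels rested on 203 to 385 counts per input library and 31 to 93 per Cap IP library, and CPSF1 took 45.2% of all counts of the 10 genes. Its one annotated neighbour on the opposite strand, ADCK5, shares 14 exon bases with it, or 0.23% of its exons, and averaged 26.3 counts where CPSF1 averaged 196.

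**Figure D1:**
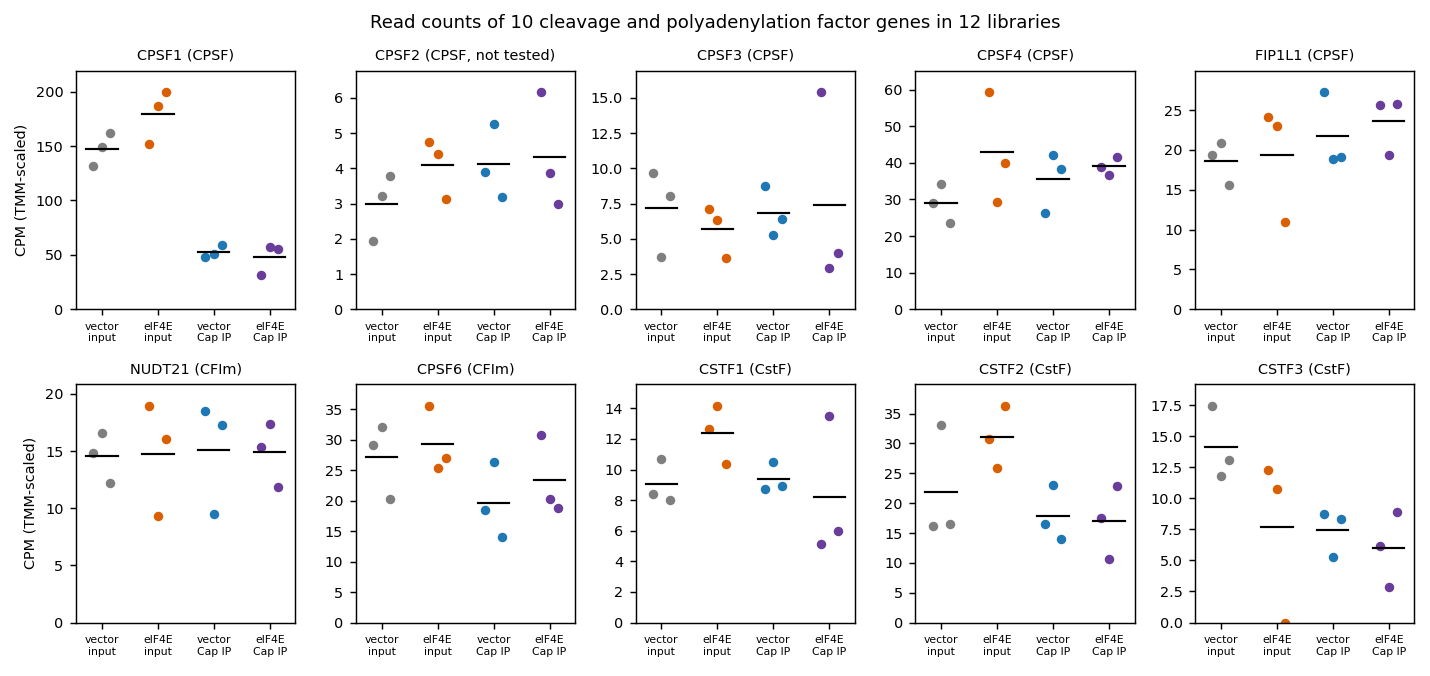
CPM of the 10 cleavage and polyadenylation genes in each of the 12 libraries, by group, each gene on its own linear axis from 0, with points for libraries and horizontal lines for group means. CPSF1 stands at 131 to 199 CPM in input and at 31.8 to 59.4 CPM in Cap IP, with no overlap, while in the other genes the groups mostly overlap.

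In vector cells CPSF1 fell from 148 ± 15.6 CPM in input to 52.5 ± 6.13 CPM in Cap IP (SD, n = 3 each), to 0.357 of its input level. The log2 change was -1.49 ± 0.28 (SE), with a 95% interval from -2.06 to -0.91 (adjusted p = 3.50e-04, edgeR). In that comparison 39.5% of all 12460 tested genes passed, 18.5% higher and 21% lower, and 15.3% of genes had a lower log2 value than CPSF1. In eIF4E-Flag cells CPSF1 fell from 179 ± 24.6 to 48.1 ± 14.1 CPM (SD, n = 3 each), to 0.269 of its input level. The log2 change was -1.89 ± 0.28, with a 95% interval from -2.48 to -1.31 (edgeR adjusted p = 3.00e-05). Here 45.1% of all tested genes passed, 21.9% higher and 23.3% lower, and 11.1% lay lower than CPSF1. A Cap IP value is relative to the other RNA in the same library, here after TMM scaling so that most genes balance. These falls are therefore relative to most other genes, and are neither ratios of read shares nor absolute amounts.

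The log2 change of CPSF1 differed between the kinds of cell by -0.41 ± 0.39 (eIF4E-Flag minus vector), with an interval from -1.21 to 0.40, and this did not pass (edgeR adjusted p = 0.893). With total counts as library sizes CPSF1 stood at -2.23 in vector and -2.72 in eIF4E-Flag cells, where the medians of all genes moved to -0.78 and -0.99 from -0.04 and -0.13. ADCK5, the neighbour on the opposite strand, stood at -1.56 ± 0.39 (edgeR adjusted p = 0.00401) and -2.05 ± 0.42 (edgeR adjusted p = 6.62e-04) in the same comparisons. Its part in the CPSF1 value was not tested.

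CPSF4, a zinc finger subunit that contacts the AAUAAA signal, had the next most counts. It lies on chromosome 7 at 99438922 to 99457373, plus strand. Its input levels were 29.1, 34.2 and 23.6 CPM in vector and 59.3, 29.3 and 40.0 CPM in eIF4E-Flag cells. Its Cap IP levels were 26.3, 42.0 and 38.3 CPM in vector and 39.0, 36.7 and 41.6 CPM in eIF4E-Flag cells. The first eIF4E-Flag input library was the highest of all. The groups overlapped between the kinds of cell and between input and Cap IP of the same cells. The log2 difference of eIF4E-Flag from vector in input was 0.57 ± 0.31, with an interval from -0.07 to 1.21 (edgeR adjusted p = 0.425), and without the first eIF4E-Flag input library it was 0.27 (edgeR adjusted p = 0.706, between 0.309 and 0.781 over all alternatives). CPSF4 shares 7.90% of its exon bases with genes on the opposite strand, among them ATP5MF-PTCD1. PTCD1, which shares no exon bases with it, overlaps the locus and averaged 1422 counts where CPSF4 averaged 58.1. PTCD1 stood at 1.95 ± 0.35 in vector and 2.35 ± 0.36 in eIF4E-Flag cells for Cap IP over input (edgeR adjusted p = 2.80e-04 and 3.91e-05), where CPSF4 stood at 0.30 ± 0.32 and -0.14 ± 0.31 (edgeR adjusted p = 0.478 and 0.746).

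FIP1L1 links CPSF to poly(A) polymerase and binds U-rich RNA. It lies on chromosome 4 at 53377569 to 53464382, plus strand. Input levels were 19.4, 20.8 and 15.6 CPM in vector and 24.1, 23.0 and 10.9 CPM in eIF4E-Flag cells, and Cap IP levels were 27.2, 18.9 and 19.2 CPM and 25.7, 19.3 and 25.8 CPM. The third eIF4E-Flag input library was the lowest, and all groups overlapped. Cap IP over input was 0.22 ± 0.35 in vector and 0.28 ± 0.35 in eIF4E-Flag cells (edgeR adjusted p = 0.643 and 0.538). LNX1 covers 14.6% of the FIP1L1 exon bases from the opposite strand and averaged 165 counts where FIP1L1 averaged 31.8. LNX1 stood at 1.07 ± 0.31 and 1.75 ± 0.31 in the same comparisons (edgeR adjusted p = 0.00895 and 1.66e-04).

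CPSF3 is the endonuclease that makes the cut, and CPSF2 is its inactive relative in the same cleavage module. CPSF3, on chromosome 2 at 9423651 to 9473101, plus strand, had 9.70, 3.74 and 8.01 CPM in vector input and 7.12, 6.35 and 3.63 CPM in eIF4E-Flag input. In Cap IP it had 8.75, 5.25 and 6.38 CPM in vector and 15.4, 2.90 and 3.97 CPM in eIF4E-Flag cells. These came from 3 to 19 counts per library, and the first eIF4E-Flag Cap IP library was far above the other two of its group. Cap IP over input in eIF4E-Flag cells was 0.35 ± 0.59 (edgeR adjusted p = 0.653), and without that library it was -0.75. The start of CPSF3 lies 123 bases from that of ITGB1BP1 on the opposite strand, which had a mean of 66.7 counts.

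CPSF2, on chromosome 14 at 92121969 to 92172145, plus strand, held 3 to 12 counts in every library. Its levels were 1.94 to 3.79 CPM in vector input, 3.12 to 4.74 CPM in eIF4E-Flag input, 3.19 to 5.25 CPM in vector Cap IP and 2.97 to 6.16 CPM in eIF4E-Flag Cap IP. All groups overlapped, near the level of 3 counts. The start of NDUFB1 lies 52 bases from that of CPSF2 on the opposite strand, and NDUFB1 averaged 3.25 counts. With no filter on low counts its log2 values lay between -0.45 and 0.54 in the 5 comparisons, and none passed in edgeR's test (smallest adjusted p = 0.770). A difference was not detectable at this depth.

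The CFIm genes gave no passing difference. NUDT21 encodes the subunit that binds UGUA, and CPSF6 a larger partner with an arginine- and serine-rich tail. NUDT21, on chromosome 16 at 56429133 to 56452199, minus strand, had 14.9, 16.6 and 12.2 CPM in vector input and 19.0, 9.29 and 16.1 CPM in eIF4E-Flag input. In Cap IP it had 18.5, 9.46 and 17.2 CPM in vector and 15.4, 17.4 and 11.9 CPM in eIF4E-Flag cells. All groups overlapped, with means between 14.6 and 15.1 CPM. Its log2 values lay between -0.07 and 0.07 in the 5 comparisons, and the intervals for Cap IP over input ran from -0.71 to 0.86 in vector and from -0.79 to 0.80 in eIF4E-Flag cells. OGFOD1 overlaps NUDT21 from the opposite strand with no shared exon bases, and averaged 34.2 counts where NUDT21 averaged 23.4.

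CPSF6, on chromosome 12 at 69239569 to 69274358, plus strand, had 29.1, 32.1 and 20.2 CPM in vector input and 35.6, 25.4 and 27.0 CPM in eIF4E-Flag input. In Cap IP it had 18.5, 26.3 and 14.0 CPM in vector and 30.8, 20.3 and 18.8 CPM in eIF4E-Flag cells. The Cap IP value was below the input value of the same title stem in all 6 pairs, as for CPSF1, yet the groups overlapped. How many of all genes did so was not counted, and the median of all genes was also below 0 in each pair. Cap IP over input was -0.49 ± 0.34 in vector and -0.34 ± 0.34 in eIF4E-Flag cells (edgeR adjusted p = 0.270 and 0.431).

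CstF works as a dimer of trimers, with CSTF2 as the RNA-binding subunit, CSTF3 as the scaffold and CSTF1 as a WD-repeat subunit. CSTF2, on chromosome X at 100820391 to 100841520, plus strand, had 16.2, 33.1 and 16.4 CPM in vector input and 30.8, 25.9 and 36.3 CPM in eIF4E-Flag input. In Cap IP it had 16.5, 23.1 and 14.0 CPM in vector and 17.4, 10.6 and 22.8 CPM in eIF4E-Flag cells. In eIF4E-Flag cells every Cap IP library lay below every input library, a pattern that 29.5% of all tested genes shared in that direction. In vector cells the groups overlapped. Means in eIF4E-Flag cells were 31.0 ± 5.22 CPM in input and 17.0 ± 6.11 CPM in Cap IP (SD, n = 3 each). The log2 difference was -0.87 ± 0.38, with an interval from -1.65 to -0.09, and it missed the threshold over all genes (edgeR adjusted p = 0.0644). It passed in 7 of 14 alternatives, one of them the fit without the third eIF4E-Flag Cap IP library (-1.17, edgeR adjusted p = 0.0427), with adjusted p between 0.00140 with total counts as library sizes and 0.246 without the second eIF4E-Flag Cap IP library. In vector cells the value was -0.31 ± 0.38 (edgeR adjusted p = 0.539), and the difference between the kinds of cell was -0.56 ± 0.53 (edgeR adjusted p = 0.893).

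CSTF3, on chromosome 11 at 33077188 to 33162371, minus strand, had 17.5, 11.8 and 13.1 CPM in vector input and 12.3, 10.8 and 0 CPM in eIF4E-Flag input. In Cap IP it had 8.75, 5.25 and 8.30 CPM in vector and 6.16, 2.90 and 8.92 CPM in eIF4E-Flag cells. The third eIF4E-Flag input library held 0 counts, which allows up to 3 counts or 1.56 CPM, although its other two input libraries held 31 and 22. The input difference of eIF4E-Flag from vector was -0.83 ± 0.60 (edgeR adjusted p = 0.567) and, without that library, -0.27 (edgeR adjusted p = 0.859, between 0.353 and 0.859 over all alternatives). In vector cells the 3 Cap IP libraries lay below the 3 input libraries, as did 27.2% of all tested genes, and the log2 difference of -0.89 ± 0.65 missed the threshold (edgeR adjusted p = 0.290). Opposite genes cover 14.5% of its exon bases, TCP11L1 with a mean of 29.8 counts and LINC00294 with 4, where CSTF3 averaged 14.8.

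CSTF1, on chromosome 20 at 56392371 to 56406362, plus strand, had 8.40, 10.7 and 8.01 CPM in vector input and 12.7, 14.2 and 10.4 CPM in eIF4E-Flag input. In Cap IP it had 8.75, 10.5 and 8.94 CPM in vector and 5.13, 13.5 and 5.95 CPM in eIF4E-Flag cells. The lowest eIF4E-Flag input library lay just under the highest vector one, so the input groups overlapped. Its input difference was 0.46 ± 0.39, with an interval from -0.35 to 1.27 (edgeR adjusted p = 0.631). Cap IP over input was 0.05 ± 0.42 in vector and -0.59 ± 0.42 in eIF4E-Flag cells (edgeR adjusted p = 0.937 and 0.269). The start of CSTF1 lies 34 bases from that of AURKA on the opposite strand, which had a mean of 54.9 counts and stood at -0.05 and -0.43 for Cap IP over input in the same cells.

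Levels are compared between genes per length here, as CPM per kilobase of all annotated exon bases. These lengths join the exons of all annotated transcripts, 13.0 kb for FIP1L1 and 13.6 kb for CPSF2 beside 2.74 kb for CSTF2. The order depends on this divisor, and the annotation used for counting was not given. In vector input FIP1L1 lay above NUDT21 by CPM (18.6 and 14.6) and below it per kilobase (1.43 and 2.45). In input CPSF1 led with means of 24.4 in vector and 29.6 in eIF4E-Flag cells, above every other gene in every library. CSTF2 and CPSF4 followed, with 7.99 and 6.81 in vector and 11.3 and 10.1 in eIF4E-Flag cells, and overlapped each other. CPSF6 came next with 3.37 and 3.64, and the remaining genes except CPSF2 lay between 1.43 and 3.12. CPSF2 was lowest with 0.220 and 0.301. The order at the top was not kept in Cap IP, where CPSF1 (8.66) and CPSF4 (8.36) overlapped in vector cells and CPSF4 (9.20) had a higher mean than CPSF1 (7.94), with overlap, in eIF4E-Flag cells.

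The comparison of eIF4E-Flag with vector input asked whether the counts of these genes in total RNA differed with eIF4E. Of the 9 tested genes 0 passed in edgeR's test, 0 had an unadjusted p under 0.05, and DESeq2 also called 0. Over all genes 0.53% passed. The log2 values ran from -0.83 for CSTF3 to 0.57 for CPSF4, with 7 of 9 above 0 and a median of 0.12, where all tested genes had 46.6% above 0 and a median of -0.05. The median of the 9 turned to -0.032 without eIF4E-Flag input library 1 and to -0.051 without vector input library 3, and was 0.27, 0.26 and 0.20 without vector input library 2, eIF4E-Flag input library 2 or eIF4E-Flag input library 3. The intervals were wide, and that of CPSF1, the best counted, ran from -0.26 to 0.82.

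For Cap IP over input CPSF1 was the only one of the 9 that passed, in vector and in eIF4E-Flag cells. The median of the 9 was -0.07 in vector cells, beside -0.04 for all genes, and -0.34 in eIF4E-Flag cells, beside -0.13. Single libraries turned the sign of these medians, to 0.011 and 0.12 without vector input library 1 or 2, and to 0.12 in eIF4E-Flag cells without eIF4E-Flag input library 1. Over all the fits without 1 library they lay between -0.25 and 0.12 in vector and between -0.43 and 0.12 in eIF4E-Flag cells. The largest positive values were 0.30 for CPSF4 in vector and 0.35 for CPSF3 in eIF4E-Flag cells. With total counts as library sizes 3 of the 9 passed in vector cells and 5 in eIF4E-Flag cells, all lower, and the calls over all genes split into 738 higher and 5013 lower in vector and 1101 higher and 5866 lower in eIF4E-Flag cells, where TMM gave 2308 and 2613, and 2726 and 2899.

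**Figure D2:**
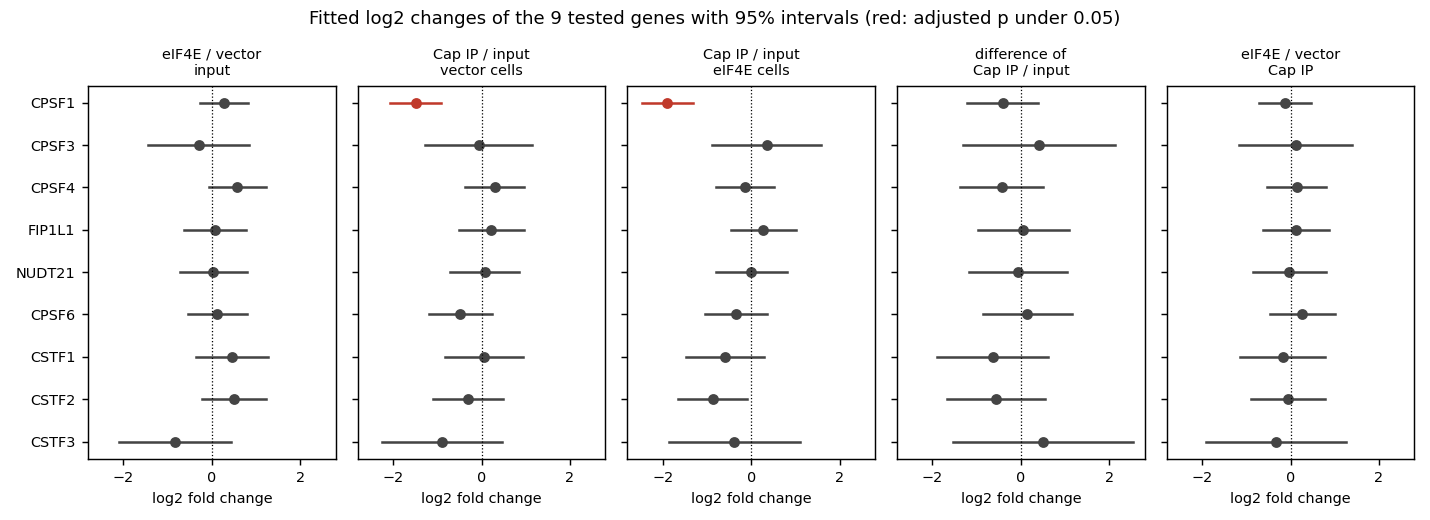
Log2 changes of the 9 tested genes in the 5 comparisons, with 95% intervals from edgeR's fit. Only CPSF1 in the comparisons of Cap IP with input, at -1.49 and -1.89, lies clear of 0 and passed the adjusted test, and the interval of CSTF2 in eIF4E-Flag cells ends at -0.09.

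Cap IP and input libraries whose titles share a stem give 6 single ratios per gene, here log2 of CPM with 2 added to each. CPSF1 stood at -1.42, -1.53 and -1.42 in vector and at -2.19, -1.68 and -1.81 in eIF4E-Flag cells, and was the lowest of the 9 tested genes in all 6. Its values in eIF4E-Flag cells were all lower than those in vector cells, as were those of CSTF1 and CSTF2. The fit called none of these differences, and the share of all genes with such a pattern was not counted. The next lowest was CSTF3 in the vector pairs and the second eIF4E-Flag pair, and CSTF1 in the other two. CSTF3 was highest of all in the third eIF4E-Flag pair, at 2.45, where its input count was 0. The medians of all genes lay between -0.13 and -0.05 in these pairs.

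**Figure D3:**
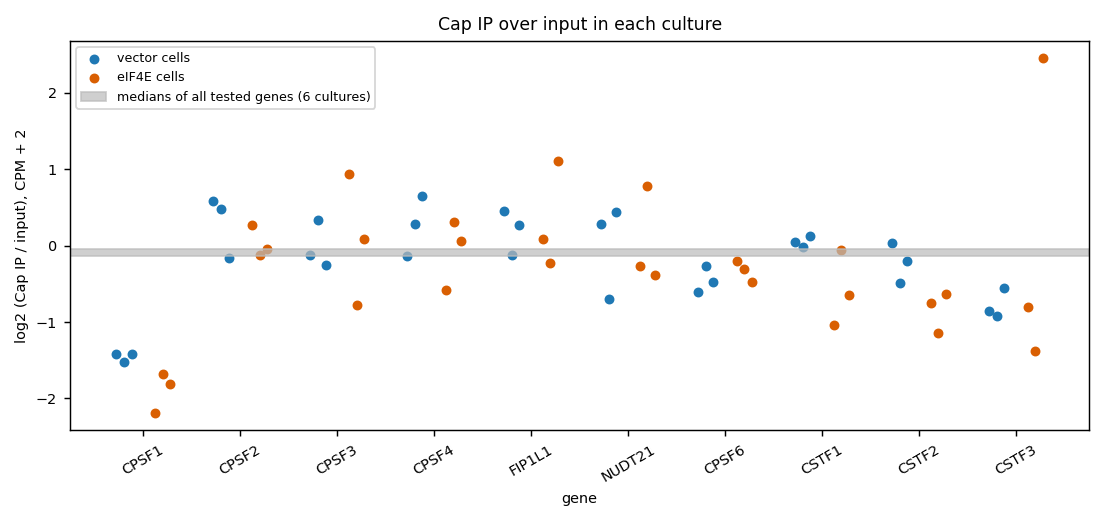
Log2 ratio of Cap IP to input CPM, with 2 added to each, for every gene of the group in the 6 pairs of libraries that share a title stem, with a grey band over the medians of all tested genes in the 6 pairs, called cultures in the picture. CPSF1 is lowest in each pair, between -2.19 and -1.42, and CSTF3 reaches 2.45 in the one pair where its input count was 0.

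The difference between eIF4E-Flag and vector cells in Cap IP over input asked whether recovery by the Cap IP changed with eIF4E. In edgeR's test 0 of the 9 genes passed, with 0 at an unadjusted p under 0.05, and DESeq2 also called 0. Over all genes 0% passed, with 728 at an unadjusted p under 0.05 and 0 by DESeq2. With a block for the title stem 51 of all genes passed, all of them higher, and 0 of the 9. The values ran from -0.64 for CSTF1 to 0.50 for CSTF3, with standard errors between 0.39 and 0.98. Within the Cap IP libraries alone, eIF4E-Flag differed from vector by -0.33 for CSTF3 to 0.27 for CPSF6, and 0 of the 9 passed in edgeR's test, with 0 at an unadjusted p under 0.05 and 0 by DESeq2. Over all genes 0.225% passed there, 28 in number, and 155 with the title tag shared by vector and eIF4E-Flag libraries as a replicate block, which called 0 of the 9 as well. CPSF1 stood at -0.13 ± 0.29, with an interval from -0.72 to 0.47 (edgeR adjusted p = 0.933).

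Other genes of 3′ end formation were taken from 4 lists, with 31 of 35 genes tested: further core factors, factors of termination and regulation, histone mRNA processing factors, and Integrator subunits related to the CPSF nuclease. In vector cells 7 of the 31 fell in Cap IP relative to input and 2 rose, with a median of -0.45. In eIF4E-Flag cells 6 fell and 4 rose, with a median of -0.33. Over all genes 39.5% passed in vector cells, 21% lower and 18.5% higher, and 45.1% in eIF4E-Flag cells, 23.3% lower and 21.9% higher. With total counts as library sizes 15 and 17 of the 31 fell and 0 rose, where 5013 and 5866 of all 12460 genes fell. Of the 31 genes 0 passed in edgeR's test between eIF4E-Flag and vector input, within Cap IP or for the difference, with 3, 1 and 0 at an unadjusted p under 0.05, and DESeq2 called 0 in each.

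Of the genes that fell, SYMPK encodes symplekin, the scaffold that joins CPSF to CstF. It fell from 79.9 ± 14.1 to 33.2 ± 5.10 CPM in vector and from 91.7 ± 12.2 to 23.8 ± 7.67 CPM in eIF4E-Flag cells (SD, n = 3 each), by -1.26 ± 0.29 and -1.94 ± 0.30 in log2 terms (edgeR adjusted p = 0.00203 and 4.64e-05). CPSF7, an alternative CFIm subunit that can take the place of CPSF6, changed by -1.48 and -1.52 (edgeR adjusted p = 0.00196 and 0.00107). PPP1R10, which anchors protein phosphatase 1 in a complex that acts on RNA polymerase II, changed by -1.55 and -1.88 (edgeR adjusted p = 7.55e-04 and 1.14e-04). These 3 passed under all alternatives in both kinds of cell.

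SCAF4, which restrains early polyadenylation, changed by -0.90 in vector and -1.43 in eIF4E-Flag cells (edgeR adjusted p = 0.0432 and 0.00243), and the vector call was lost in 7 of 14 alternatives, 5 of them without single vector libraries (all but the third Cap IP library, -0.97 to -0.65). RPRD2, a partner of the polymerase tail, changed by -1.59 and -1.05 (edgeR adjusted p = 0.00990 and 0.0464), and was lost without the first vector Cap IP library (-1.33, edgeR adjusted p = 0.0528) and in 6 of 13 alternatives in eIF4E-Flag cells, 4 of them without input libraries 1 or 2 or Cap IP libraries 2 or 3 (-1.08 to -0.84). In vector cells INTS4, which holds the Integrator nuclease pair, changed by -1.96 (edgeR adjusted p = 0.0148), and was lost without vector Cap IP library 1 (-1.43, edgeR adjusted p = 0.0629). In eIF4E-Flag cells INTS9, the inactive partner of that nuclease, changed by -1.93 (edgeR adjusted p = 0.00170) and passed in all 13 alternatives that gave a value. INTS4 stood at -0.78 in eIF4E-Flag cells and INTS9 at -1.14 in vector cells (edgeR adjusted p = 0.252 and 0.0524). Their differences between the kinds of cell did not pass (edgeR adjusted p = 0.862 and 0.882).

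PABPN1, the nuclear poly(A)-binding protein, rose in vector Cap IP by 1.35 ± 0.36 (edgeR adjusted p = 0.00608). In eIF4E-Flag Cap IP WDR33, the CPSF subunit that contacts AAUAAA together with CPSF4, rose from 130 ± 26.4 to 261 ± 28.7 CPM (SD, n = 3 each), by 1.01 ± 0.27 (edgeR adjusted p = 0.00520). CPSF4L, a paralogue of CPSF4, rose by 1.27 and SLBP, which binds the histone mRNA stem loop, by 1.11 (edgeR adjusted p = 0.0169 and 0.0246). PABPN1 stood at 0.82 in eIF4E-Flag cells (edgeR adjusted p = 0.0625). In vector cells WDR33 stood at 0.55, CPSF4L at 0.16 and SLBP at 0.64 (edgeR adjusted p = 0.113, 0.792 and 0.210). The differences of these genes between the kinds of cell did not pass (edgeR adjusted p from 0.833 to 0.911). TOX4, a subunit of the PPP1R10 complex, rose by 0.76 in vector and 0.95 in eIF4E-Flag cells (edgeR adjusted p = 0.0426 and 0.0119). Without single libraries the rises of PABPN1 and WDR33 kept passing. That of CPSF4L was lost without eIF4E-Flag Cap IP library 1 or 2 or input library 3 (0.86 to 1.15), that of SLBP without Cap IP library 1 or 3 or input library 2 (0.84 to 1.12), and that of TOX4 without Cap IP library 2 or input library 1 in eIF4E-Flag cells (0.71 to 0.78) and without any vector library but Cap IP library 3 (0.63 to 0.88). With no filter on low counts SLBP (0.94) and TOX4 (0.69 in vector and 0.78 in eIF4E-Flag cells) did not pass, nor did CPSF4L (1.13) and TOX4 in vector cells (0.73) with only the groups compared, or TOX4 in vector cells with DESeq2 size factors (0.72). None of these rises passed with total counts as library sizes, where they stood at 0.63 for PABPN1, 0.17 for WDR33, 0.35 for CPSF4L, 0.27 for SLBP and -0.01 and 0.11 for TOX4. SFT2D3 covers 25.7% of the WDR33 exon bases from the opposite strand, and opposite genes cover 7.22% of those of TOX4 and 5.76% of those of CPSF4L. Of the genes that fell, opposite genes cover 2.65% for INTS4, 1.41% for CPSF7 and 0.39% for SYMPK. They cover 0% for PPP1R10, SCAF4, RPRD2 and INTS9. The strand behind the counts is uncertain for all of these genes, whether they fell or rose.

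**Figure D4:**
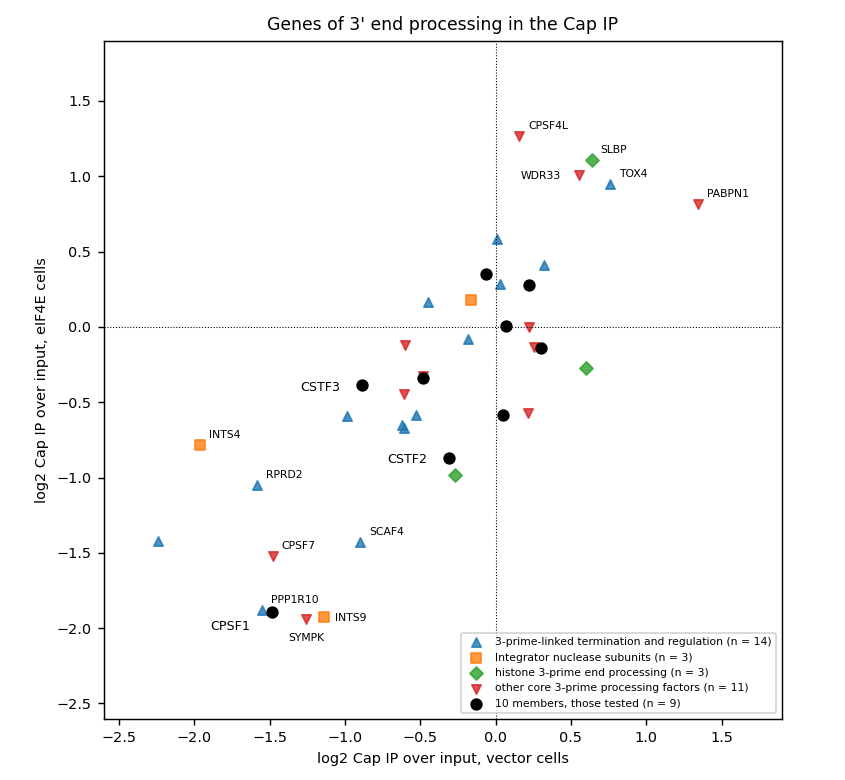
Log2 Cap IP over input in vector cells (horizontal) and in eIF4E-Flag cells (vertical) for the 9 tested genes of the group and for 31 other genes of 3′ end formation, with names beside most of those that passed in either comparison and beside CSTF2 and CSTF3. CPSF1 at -1.49 and -1.89 lies beside PPP1R10, SYMPK and CPSF7, while WDR33, CPSF4L, SLBP, TOX4 and PABPN1 lie in the upper right.

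Between eIF4E-Flag and vector cells the smallest p-values among these genes belonged to SSU72, a phosphatase of the polymerase tail, and CPSF3L (INTS11), the Integrator nuclease. In input SSU72 stood at 1.21 ± 0.37 (edgeR adjusted p = 0.151) and CPSF3L at 1.00 ± 0.37 (edgeR adjusted p = 0.241). In Cap IP CPSF3L stood at 1.34 ± 0.38 (edgeR adjusted p = 0.204), and it passed with the title tag as a replicate block (edgeR adjusted p = 0.0206, between 0.00677 and 0.684 over all alternatives). There WDR33 stood at 0.52 ± 0.27 (edgeR adjusted p = 0.589). For the difference of Cap IP over input, CPSF4L stood at 1.11 ± 0.58 and SYMPK at -0.69 ± 0.41 (edgeR adjusted p = 0.833 and 0.842).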

How the data were processed

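The deposited file held raw read counts per gene name, not normalized. Per the submitters' processing notes, STAR 2.5.1b, featureCounts 1.4.5-p1, DESeq2 and GRCh38.p5 were used. Library preparation, per the labels, used the KAPA HyperPrep RNA kit with RiboErase, and reads were single-end. The strand setting and gene annotation used for counting were not given in the sources used here.

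Counts were fitted in R 4.3.3 with edgeR 4.0.16 (limma 3.58.1). Genes were kept by filterByExpr, scaled by TMM and tested by quasi-likelihood F-tests on the means of 4 groups of 3 libraries. A call meant a p under 0.05 after Benjamini-Hochberg adjustment over all 12460 genes kept. Alternatives were DESeq2 1.42.0, its size factors, total counts as library sizes, other filters, only the groups compared, blocks for title stem or tag, and fits without each single library. The fit was tested on simulated data. The members and lists were chosen with earlier results of these data known. Named were all 10 members, pathway genes that passed in any comparison, the 2 with the smallest p in each, genes opposite to or beside a member, and the check genes. A pathway gene that this rule names is not reported here.

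No 2 replicates were copies (chi-square per degree of freedom 5.10 to 18.0). Residuals correlated at 0.429, 0.271 and 0.440 for title stems in vector cells, at 0.354, 0.0797 and 0.111 for those in eIF4E-Flag cells, and at 0.203, 0.156 and 0.305 for title tags in Cap IP. Pairing was looked for in the data only, not taken from the labels. Unmatched libraries were not correlated for comparison, so pairing was not established. The tests used no block unless one is named, and so leave out any pairing. With a block for the title stem, calls over all genes for Cap IP over input rose from 4921 to 6084 in vector and from 5625 to 6690 in eIF4E-Flag cells. Positions came from GENCODE release 44 and start sequences from RefSeq (GRCh38.p14). Figures used Python 3.11.15 and matplotlib 3.10.9.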

Additional observations from a re-analysis of the deposited data

How the results depend on the processing

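The number of the 9 tested genes that passed for Cap IP over input in eIF4E-Flag cells was 1, and it became 2 (CPSF1 and CSTF2) with a filter of 50 counts in 3 libraries, with no filter on low counts, with only the groups compared, and with the culture block or the replicate block. With total counts as library sizes it became 5, and 3 in vector cells in place of 1. Leaving out single libraries gave 1 to 2 in eIF4E-Flag cells. Over all genes 5625 of 12460 passed there in the fit above, and 3432 of 5491 with the 50-count filter, where 4 members were tested. With no filter 6070 of 33699 passed, and with only the groups compared 5253 of 10475. Of 12460 genes 6690 passed with the culture block, 6272 with the replicate block and 6967 with total counts (5751 in vector cells). Fits without 1 library passed 4560 to 5350 genes in eIF4E-Flag cells. CSTF2 passed with the culture block at -0.89 (edgeR adjusted p = 0.0141) and with the replicate block at -0.87 (edgeR adjusted p = 0.0459). Residual correlations for title tags were 0.182, 0.0126 and -0.04 in input, beside 0.203, 0.156 and 0.305 in Cap IP. Whether the tags pair libraries was not established. No other member's call changed under a block. In input, SSU72 passed with the replicate block and with no filter (1.13 and 1.30), and CPSF3L with no filter (1.09). CPSF1 passed in all 14 alternatives of both comparisons, between -1.59 and -1.40 in vector and -2.05 and -1.68 in eIF4E-Flag cells with single libraries left out. Of 628 member values under alternatives, 549 kept direction and call, 12 passed where they had not, 0 lost a call and 67 changed sign, none of them called.

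With total counts as library sizes the sign changed for CPSF3 in eIF4E-Flag cells (-0.55), CPSF4 (-0.44) and CSTF1 (-0.69) in vector cells, FIP1L1 in vector (-0.52) and eIF4E-Flag cells (-0.60) and for its difference (-0.085), NUDT21 in vector (-0.65) and eIF4E-Flag cells (-0.86), and TOX4 in vector cells (-0.012). With no filter CSTF1 in vector cells stood at -0.0050, the FIP1L1 difference at -0.067 and NUDT21 in eIF4E-Flag cells at -0.16. NUDT21 in eIF4E-Flag cells was also negative with DESeq2 (-0.019), its size factors (-0.018) and only the groups compared (-0.10), and in input with the replicate block (-0.0014). Leaving out single libraries changed the sign in these ranges. For Cap IP over input in vector cells they were CPSF3 -0.37 to 0.19, CSTF1 -0.039 to 0.19, CSTF2 -0.52 to 0.12 and NUDT21 -0.063 to 0.30. In eIF4E-Flag cells they were CPSF3 -0.75 to 0.71, CPSF4 -0.34 to 0.17, CSTF3 -0.94 to 0.12 and NUDT21 -0.24 to 0.22. For the difference they were CPSF3 -0.69 to 0.76, CPSF6 -0.11 to 0.39, CSTF3 -0.056 to 1.01, FIP1L1 -0.23 to 0.24 and NUDT21 -0.31 to 0.15. In input they were CPSF6 -0.058 to 0.27, FIP1L1 -0.12 to 0.35 and NUDT21 -0.18 to 0.28. Within Cap IP they were CPSF1 -0.25 to 0.12, CPSF3 -0.94 to 0.51, CPSF4 -0.019 to 0.28, CSTF1 -0.73 to 0.088, CSTF2 -0.33 to 0.21, CSTF3 -0.73 to 0.023 and NUDT21 -0.24 to 0.13. The cause was not tested.

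Over all genes, the 66 calls in input became 140 with DESeq2, 318 with no filter, 32 with the 50-count filter, 18 with only the groups compared, 11 with total counts, 462 with the replicate block and 7 to 109 with single libraries left out (109, 7 and 9 without eIF4E-Flag input library 1, 2 or 3, and 13 without vector input library 3). The 28 in Cap IP became, in the same order, 71, 204, 18, 6, 23, 155 and 0 to 30 (0 and 1 without eIF4E-Flag Cap IP library 2 or 3, and 4 without vector Cap IP library 3). The 0 for the difference became 51 with the culture block and 3 with no filter. The 4921 and 5625 for Cap IP over input became 2949 and 3432 with the 50-count filter, which tests fewer genes and gave no value for CPSF3, FIP1L1, NUDT21, CSTF1 and CSTF3. Every member but CPSF1 averaged between 6 and 58.1 counts per library, which limits the precision of its values.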
